A study of Mus musculus with 18 samples.

Results

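The ligands and receptors of the epidermal growth factor (EGF) family were described in hand-dissected tubules of the mouse thick ascending limb (TAL), the kidney segment that reabsorbs sodium chloride and divalent cations. The 10 genes were chosen by name from the 55401 genes of the count and TPM tables, and all 10 were found: the ligands *Egf*, *Tgfa*, *Hbegf*, *Btc* and *Areg*, the receptors *Egfr*, *Erbb2*, *Erbb3* and *Erbb4*, and *Errfi1*, whose protein inhibits the receptors. The tables held 18 pools of tubules: 5 of cortical TAL (CTAL) and 5 of medullary TAL (MTAL) from wild type (WT) animals, and 5 of CTAL and 3 of MTAL from conditional *Cldn10* knock-outs (cKO). The labels give the strain as C57BL/6J, while the methods describe a background that is mostly, not wholly, C57BL/6. The animals were described as males and aged 4 to 10 months, and each pool held 150 to 200 tubules of a distinct mouse. Both genotypes carried floxed *Cldn10* alleles. The cKO mice also carried Ksp-Cre, a Cre recombinase driven by the Ksp-cadherin promoter and active along the distal nephron and collecting duct rather than in the TAL alone, and the WT mice were littermates without Cre. All kidneys were treated with liberase before dissection, and MTAL were taken from the outer medulla (inner stripe). The study describes nephrocalcinosis that hampered the dissection of cKO MTAL.

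The ligands of this family are made as membrane-anchored precursors, and metalloproteases of the ADAM family release many of them. They bind EGFR, ERBB3 or ERBB4, which pair with each other or with ERBB2, a receptor without a known ligand of its own. ERBB3 signals mainly through its partners because its kinase is nearly inactive. The active pairs feed the RAS-MAPK cascade, PI3K and STAT proteins, and MAPK activity induces early genes and inhibitors such as *Errfi1*. The distal nephron is a main source of the EGF in urine, and EGF is known for raising the activity of the magnesium channel TRPM6 in the distal convoluted tubule.

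*Cldn10*, the deleted gene, lay between 151 and 296 CPM (counts scaled to a common library size) in the 8 cKO pools and between 384 and 810 CPM in the 10 WT pools, and the deletion was partial. Knock-out pools had been kept for the study by their low *Cldn10*, so the lack of overlap between the genotypes was fixed by that choice and is no test of the labels. All CPM are on library sizes scaled by the TMM method. Total estimated counts ranged from 10824299 to 62339939 per pool. WT CTAL replicate 1 is a knock-out in its genotype label and WT in its pool name, and was used as WT. The TAL marker *Slc12a1* ranged from 11424 to 16145 CPM. The collecting duct, distal convoluted tubule and macula densa lists are given beside some members, not for every comparison in which their genes moved. *Xist*, an RNA of female cells, was at 1 CPM or more in 7 pools, namely 2 WT CTAL, 4 WT MTAL and 1 cKO CTAL (up to 8.76 CPM), while *Ddx3y* of the Y chromosome was at 23.6 CPM or more in every pool. A fit with a term for these 7 pools was therefore run beside each comparison.

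*Egf*, *Egfr* and *Hbegf* passed a test between groups, and upstream sequence is shown for *Egf* and *Egfr* but not for *Hbegf*. *Egf* lies on chromosome 3 of GRCm38 (129677565 to 129755316, minus strand), and 4 annotated genes overlap it, 1 of them on the same strand. *Egfr* lies on chromosome 11 (16752203 to 16918158, plus strand), where it overlaps the antisense gene *Egfros* (no gene overlaps *Hbegf*). The libraries were strand-specific, but whether the counting used strand is not given in the sources used here, so the assignment of reads to *Egfr* or *Egfros* is uncertain. The 250 bases before the first listed RefSeq start of *Egf* and *Egfr* (GRCm38.p6) are shown 5′ to 3′ on the strand of the gene, with motif matches in capitals.
Egf, chr3:129755323-129755572, minus strand: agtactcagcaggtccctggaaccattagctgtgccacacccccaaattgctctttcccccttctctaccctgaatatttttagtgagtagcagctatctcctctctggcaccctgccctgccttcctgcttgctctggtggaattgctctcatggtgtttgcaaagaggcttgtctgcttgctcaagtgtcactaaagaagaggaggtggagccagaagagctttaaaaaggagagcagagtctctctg
Egfr, chr11:16751953-16752202, plus strand: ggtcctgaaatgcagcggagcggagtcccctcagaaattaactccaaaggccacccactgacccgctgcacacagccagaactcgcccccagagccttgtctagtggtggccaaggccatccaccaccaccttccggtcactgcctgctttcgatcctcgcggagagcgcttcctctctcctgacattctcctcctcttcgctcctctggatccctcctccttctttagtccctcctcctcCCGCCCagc

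The windows were searched on both strands for 5 motifs, none of which contains another: the TATA box TATAAA, the CCAAT box CCAAT, the GC box GGGCGG, the AP-1 site TGANTCA and the cAMP response element TGACGTCA. Of the 32851 RefSeq windows of the mouse table, 12.4% held TATAAA, 33.8% CCAAT, 32.7% GGGCGG, 6.75% TGANTCA and 1.55% TGACGTCA. The *Egf* window held none of them, and the *Egfr* window held 1 GC box, which begins 9 bases before the start and is the stretch in capitals. Among the 8 members searched, the rare cAMP response element was in the windows of *Errfi1* (its second listed start, 51 bases before it) and *Areg* (61 bases before the start). A match is a match of letters only.

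*Egf* dominated the family at the RNA level. TPM, which correct for transcript length, allow genes to be compared with each other. *Egf* stood between rank 16 and rank 31 of all genes by TPM and took 0.976% to 2.70% of all estimated counts of a pool. Its TPM was 6482 ± 813 (SD, n = 5) in WT CTAL, 3070 ± 257 (n = 5) in WT MTAL, 7524 ± 1234 (n = 5) in cKO CTAL and 3904 ± 960 (n = 3) in cKO MTAL. Of the summed TPM of the 5 ligands, *Egf* made up 98.0% to 99.8%. *Hbegf*, a heparin-binding ligand of EGFR and ERBB4, followed with 12.996 to 55.9 TPM and made up 61.4% to 93.4% of the rest. *Btc* (betacellulin) lay between 1.95 and 10.96 TPM and *Tgfa* (transforming growth factor alpha) between 0.105 and 3.89 TPM.

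*Areg* (amphiregulin) was close to undetected. It had 2 counts in WT CTAL replicate 8, 1 count in cKO CTAL replicate 4 and 0 in the other 16 pools, where a count of 0 allows up to 3 counts, or 0.0492 to 0.277 CPM depending on the depth. *Tgfa* had 7 to 148 estimated counts per pool. Both genes failed the filter of 3 CPM in all comparisons, so that 8 of the 10 members were tested.

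Among the receptors, *Erbb4*, which binds neuregulins, betacellulin and heparin-binding EGF, had the highest mean share of receptor TPM in WT CTAL, WT MTAL and cKO CTAL, but not in cKO MTAL. It had 36.0 to 55.6 TPM over the 18 pools and made up 42.6% ± 4.36 (SD, n = 18) of the summed receptor TPM. *Erbb2* followed with 26.6 to 48.2 TPM (35.6% ± 2.94). In cKO MTAL the shares were 38.4% ± 7.61 for *Erbb4* and 39.0% ± 3.62 for *Erbb2* (SD, n = 3), and *Erbb2* was above *Erbb4* in replicates 16 and 20. Over the 18 pools there followed *Erbb3* with 10.01 to 24.9 TPM (15.8% ± 2.46) and *Egfr* with 3.91 to 17.4 TPM (5.99% ± 3.20). *Erbb4* and *Erbb2* overlapped in range, as did *Erbb3* and *Egfr*, whereas the lowest *Erbb2* value was above the highest *Erbb3* value. The summed receptor TPM lay between 88.7 and 130.4, and its group means (103 to 113) differed by less than the SDs of the cKO groups. In CPM the sum was lowest in cKO MTAL, at 568 ± 20.2 (SD, n = 3). It was 624 ± 42.0 in WT CTAL, 643 ± 57.4 in WT MTAL and 627 ± 43.4 in cKO CTAL (n = 5 each). The sums were not tested.

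**Figure D1:**
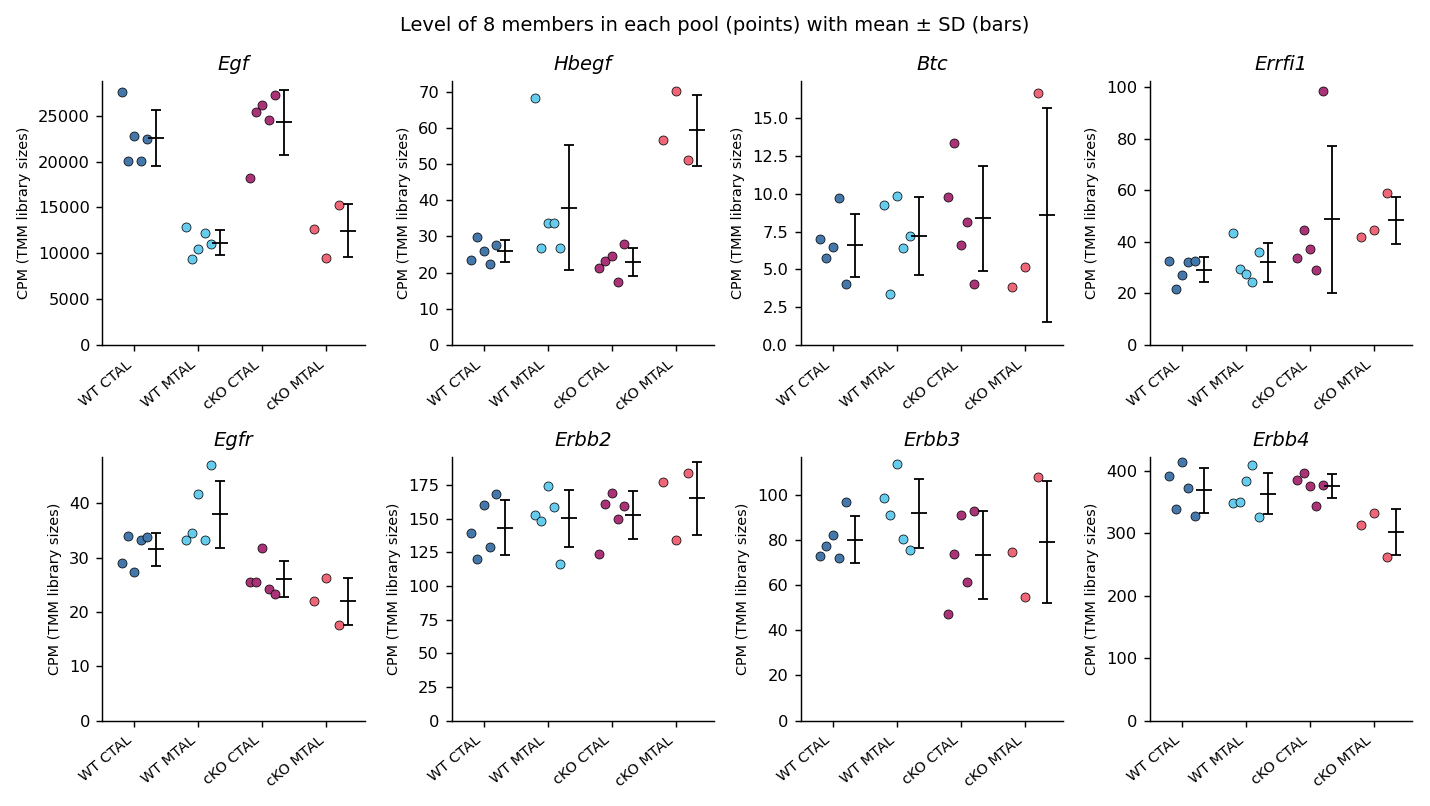
Level of the 8 tested members in CPM on TMM-scaled library sizes (linear axes from 0), with a point for each pool of WT CTAL, WT MTAL, cKO CTAL (n = 5 each) and cKO MTAL (n = 3) and bars for mean ± SD. The *Egf* points of both MTAL groups lie below those of both CTAL groups, the *Hbegf* points of cKO MTAL (51.2 to 70.4 CPM) lie above those of cKO CTAL, and the *Egfr* points of cKO MTAL (17.6 to 26.3 CPM) lie below those of WT MTAL.

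The comparison of WT MTAL with WT CTAL asks how the segments differ without the deletion. *Egf* was lower in MTAL. The 5 WT CTAL pools had 27627, 20045, 22757, 20115 and 22479 CPM (replicates 1, 3, 8, 10 and 22), and the 5 WT MTAL pools 12912, 9352, 10416, 12156 and 11002 CPM (replicates 11, 13, 15, 17 and 19). Every MTAL pool was below every CTAL pool. The log2 fold change was -1.02 (SE 0.11), a level 0.494 times that of CTAL, with an adjusted p of 1.887e-05 in edgeR's quasi-likelihood test (Benjamini-Hochberg over 11650 genes). A gene was called at an adjusted p under 0.05, and *Egf* also reached the study's threshold of a log2 fold change of 1 in size. It was the only member called in this comparison, 1 of 8 lower and 0 of 8 higher, where 4.1% of all genes tested were called lower and 2.76% higher. In bulk tubules, fewer cells that express a gene and less RNA per cell cannot be told apart.

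*Hbegf* ranged from 22.5 to 29.9 CPM in WT CTAL. In WT MTAL it ranged from 26.8 to 33.8 CPM in 4 pools and stood at 68.2 CPM in replicate 11. The groups overlapped (log2 fold change 0.55, SE 0.22, adjusted p = 0.1663 in edgeR). *Egfr* had 27.4 to 33.97 CPM in WT CTAL and 33.3 to 47.1 CPM in WT MTAL (0.27, SE 0.13, adjusted p = 0.2525), with overlap of the groups. The log2 fold changes of *Erbb2*, *Erbb3*, *Erbb4*, *Btc* and *Errfi1* lay between -0.02 and 0.19.

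The same contrast within the knock-outs gave a like value for *Egf*. The cKO CTAL pools had 18221, 25368, 26182, 24564 and 27276 CPM (replicates 2, 4, 7, 9 and 21) and the cKO MTAL pools 12695, 9444 and 15289 CPM (replicates 16, 18 and 20). The groups did not overlap, and the log2 fold change was -0.93 (SE 0.18, 0.527 times, adjusted p = 0.02475). This call was less firm than in WT: it was lost without cKO CTAL replicate 4, 7 or 9 or cKO MTAL replicate 16 (adjusted p = 0.07287, 0.05188, 0.05434 and 0.06726), and with limma on TPM (log2 difference -0.96, adjusted p = 0.08).

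*Hbegf* was higher in cKO MTAL than in cKO CTAL. Its levels were 56.7, 70.4 and 51.2 CPM in cKO MTAL replicates 16, 18 and 20, and 21.4, 23.1, 24.7, 17.4 and 27.8 CPM in cKO CTAL replicates 2, 4, 7, 9 and 21. The lowest MTAL pool was thus far above the highest CTAL pool. The log2 fold change was 1.41 (SE 0.16, 2.66 times, adjusted p = 0.0006989), and it stayed called under all 14 alternatives run for this comparison (1.29 to 1.62, adjusted p between 5.041e-13 and 0.003945). Of the 8 members, 1 was called higher and 1 lower, where 1.12% of the 12044 genes tested were called higher and 0.631% lower.

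*Erbb4* was at 313, 332 and 261 CPM in cKO MTAL and at 344 to 395 CPM in cKO CTAL. The groups did not overlap in CPM or in TPM, but the difference missed the threshold (log2 fold change -0.28, SE 0.10, adjusted p = 0.1606). The log2 fold changes of *Egfr*, *Erbb2* and *Erbb3* between the segments of the cKO lay between -0.21 and 0.15.

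**Figure D2:**
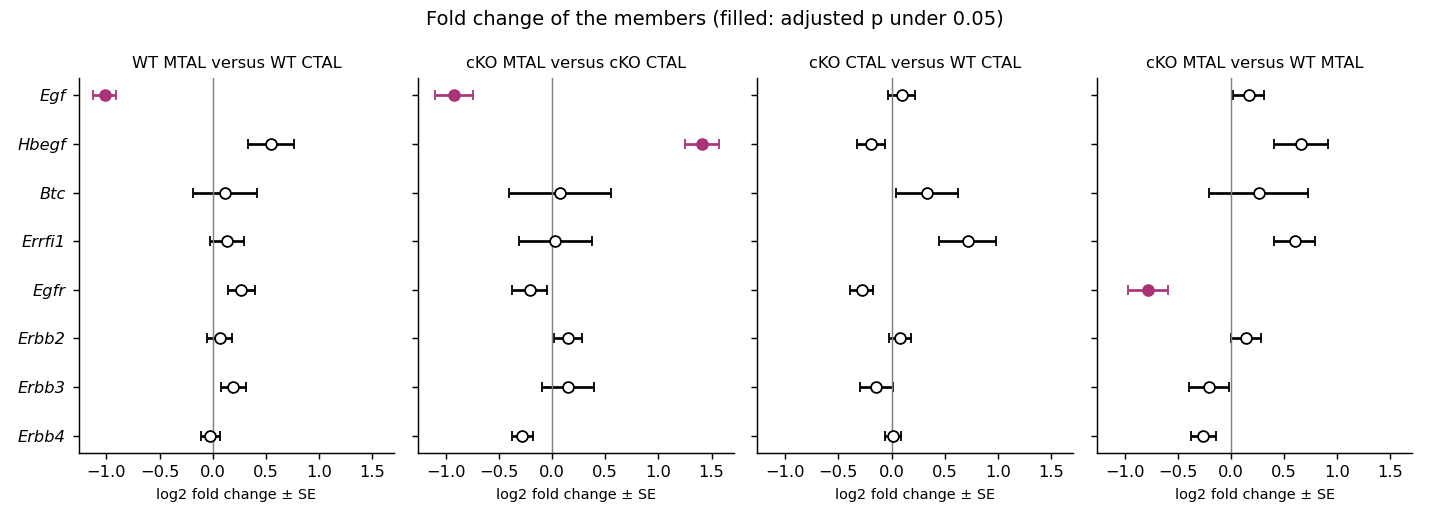
Log2 fold change (x axis) of the 8 tested members with its SE in each of 4 comparisons, 1 panel each, from edgeR. Filled points have an adjusted p under 0.05: *Egf* in both comparisons of MTAL with CTAL, *Hbegf* in cKO MTAL versus cKO CTAL and *Egfr* in cKO MTAL versus WT MTAL, and none in cKO CTAL versus WT CTAL.

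Some markers of neighbouring cells moved with these segment differences, and others did not. The summed level of the 6 distal convoluted tubule markers was 405 to 687 CPM in WT CTAL against 98.5 to 137 CPM in WT MTAL, and 511 to 912 CPM in cKO CTAL against 214 to 265 CPM in cKO MTAL. Nearly all of it was *Tmem52b* (89.6 to 788 CPM). The transporter that defines that segment, *Slc12a3*, stood between 1.58 and 60.2 CPM, and *Pvalb* at or below 0.768 CPM. The 4 macula densa markers summed to 4.61 to 20.9 CPM in the CTAL groups and to 1.62 to 9.96 CPM in the MTAL groups, with overlap. *Trpm6* of the distal convoluted tubule list had medians of 1.59 CPM in WT CTAL and 1.70 CPM in WT MTAL. *Ptgs2* of the macula densa list had 0.903 and 2.60 CPM in the same order. The part of these cells in the *Egf* difference was not tested. Among the TAL markers, *Umod* (uromodulin, the main urinary protein) was at 44541 to 51236 CPM in WT CTAL and at 23817 to 31781 CPM in WT MTAL. In the knock-outs, where *Egf* also differed between the segments, *Umod* was at 47443 to 55295 CPM in CTAL and at 42537 to 47773 CPM in MTAL.

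The next comparison set the genotypes against each other within MTAL. *Egfr* was lower in cKO MTAL than in WT MTAL in CPM. The cKO MTAL pools had 22.04, 26.3 and 17.6 CPM (replicates 16, 18 and 20) and the WT MTAL pools 33.3, 34.5, 41.7, 33.3 and 47.1 CPM (replicates 11, 13, 15, 17 and 19). Every knock-out pool was below every WT pool. The log2 fold change was -0.78 (SE 0.19, 0.582 times, adjusted p = 0.02246), below 1 in size. It was the only member called, 1 of 8 lower and 0 of 8 higher, where 2.57% of the 12060 genes tested were called lower and 4.44% higher.

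In TPM the *Egfr* difference was not seen. Its TPM was 3.91, 4.79 and 17.4 in cKO MTAL replicates 16, 18 and 20, and 4.11, 4.91, 13.2, 4.07 and 11.7 in WT MTAL replicates 11, 13, 15, 17 and 19. The groups overlapped, and limma on log2(TPM + 1) gave a difference of 0.06 (adjusted p = 0.9587). The ratio of CPM to TPM, which rises with the transcript length used to make the TPM, varied for *Egfr* from 1.01 in cKO MTAL replicate 20 to 8.17 in WT MTAL replicate 17. It was between 3.17 and 4.01 in WT CTAL replicate 10, WT MTAL replicates 15 and 19 and cKO CTAL replicate 4, and at 4.76 or more in the other 13 pools. For *Egf* the same ratio lay between 2.97 and 3.96. TPM also moved the median of all genes in this comparison by 0.194 on the log2 scale, against 0.001 in counts.

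The CPM call rested on single pools as well. It was lost without WT MTAL replicate 15 or 19 or cKO MTAL replicate 16 or 20 (adjusted p = 0.05633, 0.05729, 0.05824 and 0.08872). The log2 fold change kept its sign, between -0.93 and -0.64, with each pool left out. The endothelial markers fell in the same comparison: 4 of 6 were called lower, among them *Cdh5* (log2 fold change -1.34, adjusted p = 0.0004471), and they summed to 129 to 243 CPM in cKO MTAL against 251 to 375 CPM in WT MTAL. The part of endothelial cells in the *Egfr* difference was not tested.

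**Figure D3:**
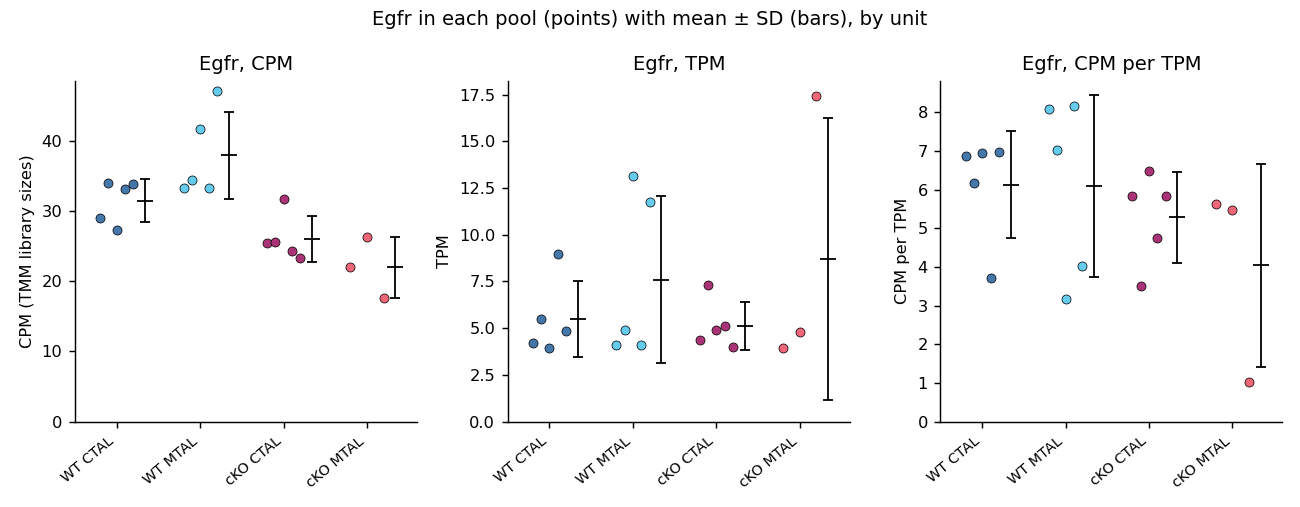
*Egfr* in each pool (points) with mean ± SD (bars) in the 4 groups, as CPM (left), TPM (middle) and CPM per TPM (right), all on linear axes from 0. The cKO MTAL pools are below the WT MTAL pools in CPM but not in TPM, where cKO MTAL replicate 20 has the highest value of all pools (17.4).

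*Errfi1* and *Hbegf* were higher on average in cKO MTAL than in WT MTAL but missed the threshold. *Errfi1* had 41.8, 44.4 and 58.9 CPM in the knock-out pools and 24.5 to 43.3 CPM in the WT pools (log2 fold change 0.60, SE 0.20, adjusted p = 0.07445). In TPM its groups did not overlap (18.9 to 29.5 against 9.19 to 18.003), while limma on TPM gave an adjusted p of 0.1263 and DESeq2 an adjusted p of 0.04079. The median of all genes moved up by 0.194 on the log2 scale in TPM. *Hbegf* had 51.2 to 70.4 CPM in the knock-out pools and overlapped with WT MTAL replicate 11 at 68.2 CPM (0.66, SE 0.26, adjusted p = 0.1317). Without that pool the *Hbegf* difference was 0.98 (adjusted p = 0.004858), and *Errfi1* was called higher as well (adjusted p = 0.03602). The same pool had the highest *Fos* of all 18 pools (1543 CPM). It also had the highest sums of collecting duct markers among the WT MTAL pools. These were 285 CPM for principal cells (63.0 to 106 CPM in the others) and 72.8 CPM for intercalated cells (18.1 to 42.2 CPM in the others). The part of collecting duct cells in the *Hbegf* value was not tested.

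*Egf* differed little between the genotypes in MTAL, at 11168 ± 1406 CPM (SD, n = 5) in WT and 12476 ± 2929 CPM (n = 3) in cKO (log2 fold change 0.16, SE 0.15, adjusted p = 0.5485). *Erbb4* was at 363 ± 33.1 and 302 ± 36.6 CPM (-0.26, SE 0.12, adjusted p = 0.2003). *Btc* in cKO MTAL was spread from 3.83 to 16.7 CPM. Its highest pool, replicate 20, also had the highest sum of the 7 principal cell markers (900 CPM, against 101 and 104 CPM in replicates 16 and 18). The part of collecting duct cells in these values was not tested.

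In CTAL no member was called between the genotypes (0 of 8 in edgeR and 0 of 8 in DESeq2), where 0.658% of the 11702 genes tested were called higher and 0.564% lower. At an unadjusted p under 0.05 there were 2. *Egf* was at 22605 ± 3083 CPM in WT CTAL and 24322 ± 3556 CPM in cKO CTAL (SD, n = 5 each; log2 fold change 0.10, SE 0.13, adjusted p = 0.8296), which differ by less than their spread. *Errfi1* was at 98.4 CPM in cKO CTAL replicate 21 and at 29.2 to 44.7 CPM in the other 4 cKO pools, against 21.6 to 32.5 CPM in WT CTAL. Its log2 fold change was 0.72 (SE 0.27, adjusted p = 0.285) and fell to 0.29 without replicate 21 (adjusted p = 0.4576). In TPM its 5 cKO pools (15.2 to 46.6) were all above the 5 WT pools (9.03 to 14.995), but limma on TPM did not call it. TPM also moved the median of all genes in this comparison by 0.126 on the log2 scale, against 0.003 in counts. *Egfr* was at 31.5 ± 3.07 CPM in WT CTAL and 26.1 ± 3.28 CPM in cKO CTAL (-0.28, SE 0.11, adjusted p = 0.2969).

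Whether the deletion acted differently in the segments was tested as an interaction over 12586 genes. None of the 8 members was called by edgeR or by DESeq2, and 3 had an unadjusted p under 0.05, where 0.262% of all genes were called higher and 0.0238% lower. The difference between the genotype effects (MTAL minus CTAL) was 0.83 for *Hbegf* (SE 0.30, adjusted p = 0.186), -0.52 for *Egfr* (SE 0.20, adjusted p = 0.2359) and 0.05 for *Egf* (SE 0.20, adjusted p = 0.9321). Without WT MTAL replicate 11 the *Hbegf* difference was 1.18 and was called (adjusted p = 0.01371).

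The genes with patterns most like *Egf* were sought over the 18 pools, as the root mean square difference of centred log2(CPM + 1). They were *Acss1* (0.209), *Fgf9* (0.222), *Slc9a2* (0.222), *Gcgr* (0.248) and *Bmp4* (0.25), where *Egf* itself had an SD of 0.562 over the pools. *Acss1*, a mitochondrial acetyl-CoA synthetase, had mean levels of 414 CPM in WT CTAL, 196 CPM in WT MTAL, 511 CPM in cKO CTAL and 294 CPM in cKO MTAL. The genes nearest to *Hbegf* were *Ier5* (0.267), *Efemp2* (0.314), *Nfkbiz* (0.318), *Ccn1* (0.33) and *Slco4a1* (0.334), with an SD of 0.571 for *Hbegf*. *Ier5*, an immediate early gene, had mean levels of 14.8, 20.8, 12.98 and 30.04 CPM in the same order of groups. These are descriptions of likeness with no test.

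Around the members, the other ligands of the family were nearly silent except for *Nrg1* (neuregulin 1, a ligand of ERBB3 and ERBB4). It was the only 1 of 6 that passed the filter, at 12.2 to 23.6 CPM, and was not called in any comparison by edgeR or DESeq2 (cKO MTAL against WT MTAL: log2 fold change 0.56, SE 0.21, adjusted p = 0.1173). Of the 10 genes of ligand release, *Adam9*, a metalloprotease, and *Tspan5*, a tetraspanin that guides ADAM10, were lower in WT MTAL than in WT CTAL (-0.42 and -1.06, adjusted p = 0.00421 and 0.0309). *Adam9* rose in cKO MTAL (98.8 to 144 CPM, against 74.5 to 96.3 CPM in the WT pools), by 0.53 (adjusted p = 0.02922). *Adam17*, the main sheddase of several ligands of EGFR, was at 44.9 ± 4.96, 49.4 ± 4.201, 47.1 ± 2.45 and 53.4 ± 5.11 CPM in WT CTAL, WT MTAL, cKO CTAL and cKO MTAL, and was not called.

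Downstream, none of the 17 adaptor and RAS-MAPK genes was called in any comparison by edgeR or DESeq2, although 0 to 3 had an unadjusted p under 0.05 per comparison. Of the 14 genes of the PI3K, STAT and PLC branch, *Stat3* rose in cKO MTAL against WT MTAL (161 to 241 against 87.3 to 120 CPM; log2 fold change 0.88, adjusted p = 0.002049). *Pik3r1*, the regulatory subunit of PI3K, fell in counts in the cKO of both segments (-0.75 in MTAL, adjusted p = 0.01087, and -0.54 in CTAL, adjusted p = 0.01513). In CTAL it ranged from 178 to 228 CPM in WT and from 125 to 173 CPM in cKO, with no overlap. In TPM its groups overlapped in both segments. They had 41.0 to 53.0 TPM in WT MTAL against 34.2 to 58.3 in cKO MTAL, and 47.6 to 52.2 in WT CTAL against 37.4 to 50.3 in cKO CTAL. *Stat5a* was higher in WT MTAL than in WT CTAL (0.46, adjusted p = 0.04546). Of the 15 other feedback inhibitors, 14 were tested in MTAL and *Socs5* alone was called there, lower in cKO (-0.51, adjusted p = 0.01307).

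Of the 13 early targets of the MAPK cascade, 10 were tested. In cKO CTAL 6 were lower than in WT CTAL and 0 higher, where 0.564% of all genes tested were called lower and 0.658% higher. The median log2 fold change was -0.85 over the 10 and 0.003 over all genes. *Fos*, a subunit of AP-1, ranged from 221 to 501 CPM in WT CTAL and from 125 to 207 CPM in cKO CTAL (-1.08, SE 0.20, adjusted p = 0.01513). *Myc* (-1.17, adjusted p = 0.01516) and *Ier2* (-1.12, adjusted p = 0.01808) also fell. In cKO MTAL 6 were higher than in cKO CTAL and 0 lower, where 1.12% of all genes were called higher and 0.631% lower, and the medians were 1.29 over the 10 and 0.027 over all genes. There *Fos* stood at 519 to 649 CPM (1.81, SE 0.15, adjusted p = 0.0001054), and *Jun* and *Junb*, its partners in AP-1, rose by 1.34 and 1.76 (adjusted p = 0.0003226 and 0.0003682). Cell markers also moved in cKO CTAL against WT CTAL. The endothelial list summed to 163 to 246 against 201 to 448 CPM, with *Tek* called lower (-0.70, adjusted p = 0.03011). *Atp6v0d2* of intercalated cells was called higher (1.66, adjusted p = 0.01516). The part of these cells in the early targets was not tested.

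The counts in CTAL were the less firm. The 6 lower genes became 2 without WT CTAL replicate 3, 10 or 22 or cKO CTAL replicate 7 or 9, 3 without cKO CTAL replicate 21, 1 in a fit of all pools with or without the term for *Xist*, and 0 with limma on TPM. The median of the 10 stayed between -0.716 and -0.869 in the fits without these pools and was -0.851 in the fit of all pools. The count of 6 higher genes in cKO MTAL against cKO CTAL lay between 5 and 7 under all 14 alternatives. In cKO MTAL against WT MTAL *Ier3* alone was called (1.92, SE 0.26, adjusted p = 0.0003932), and the median of the 10 was -0.127, or 0.396 without WT MTAL replicate 11. It had 78.5 to 144 CPM in cKO MTAL and 17.8 to 43.4 CPM in WT MTAL. Between the WT segments *Phlda1* and *Myc* were higher in MTAL (1.15 and 0.996, adjusted p = 0.01099 and 0.01752) and *Ier3* and *Etv5* lower (-1.42 and -1.12, adjusted p = 0.0003334 and 0.01616). As for the members, the interaction was not called for any of the 10 early targets by edgeR or DESeq2, with 2 at an unadjusted p under 0.05.

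**Figure D4:**
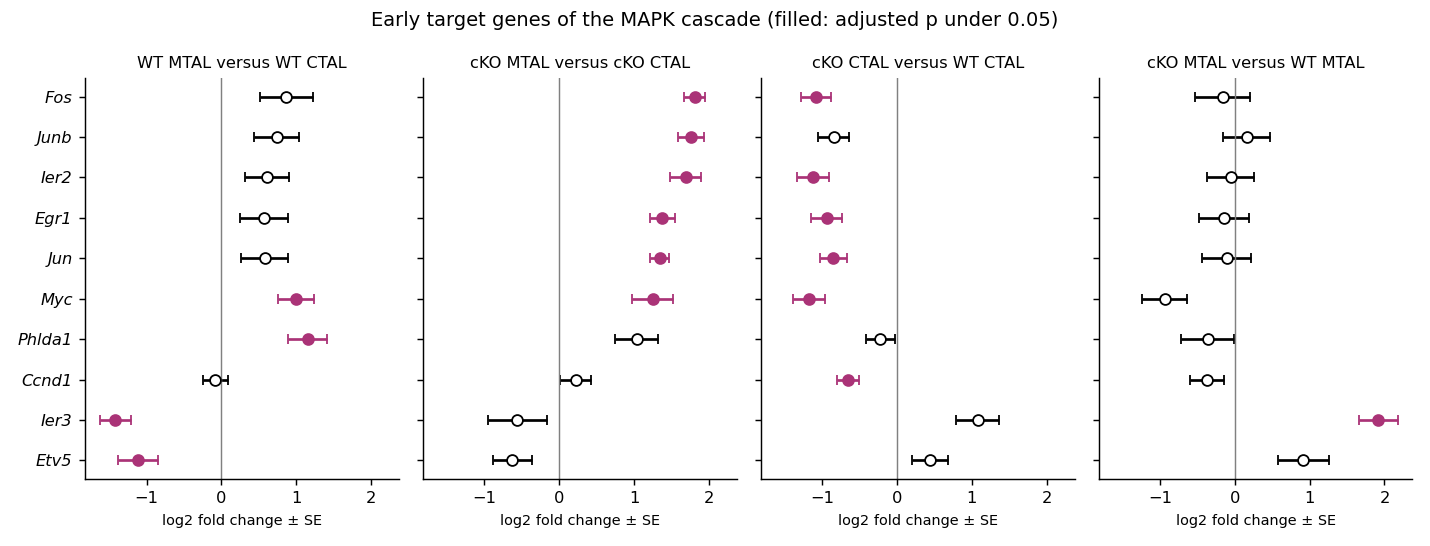
Log2 fold change (x axis) with its SE of the 10 tested early targets of the MAPK cascade in 4 comparisons, 1 panel each, from edgeR, with filled points at an adjusted p under 0.05. In cKO MTAL versus cKO CTAL 6 genes are filled and to the right of 0 (median of the 10 genes 1.29), and in cKO CTAL versus WT CTAL 6 are filled and to the left of 0 (median -0.85).

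Of the 4 tubular injury markers tested in MTAL, 3 were called higher in cKO than in WT, where 4.44% of all genes were called higher. *Lcn2* (lipocalin 2) was at a log2 fold change of 3.44 (adjusted p = 0.00135). The 7 markers of the list summed to 2035 to 8163 CPM in cKO MTAL and to 1041 to 1274 CPM in WT MTAL. Nearly all of each sum was *Spp1* (1961.5 to 7835 CPM in cKO MTAL, 1015 to 1241 CPM in WT MTAL). *Vcam1* did not rise (3.62 to 6.04 CPM in cKO MTAL, 3.39 to 13.7 CPM in WT MTAL). The highest sum was that of cKO MTAL replicate 18, which also had the highest *Hbegf* (70.4 CPM) and the lowest *Egf* (9444 CPM) of the group. The highest injury sum of cKO CTAL was 4460 CPM in replicate 2, which had the lowest *Egf* (18221 CPM) of that group but not the highest *Hbegf* (21.4 CPM, in a range of 17.4 to 27.8 CPM). The part of injury in these values was not tested.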

How the data were processed

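The authors trimmed the paired-end reads, mapped and quantified them per gene with DRAGEN on mm10, and deposited estimated counts, which are not normalized, and TPM, which the authors corrected for transcript length and scaled to depth. The trimming tool differs between the paper and the submitters' processing notes. Estimated counts had decimals for 6.26% to 9.53% of genes and were rounded to whole numbers.

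The test was edgeR's quasi-likelihood F test (edgeR version 4.0.16 under R version 4.3.3) with TMM library sizes, fitted for each comparison to the pools of its groups only. A gene entered a fit if 5 pools, or 3 in comparisons with cKO MTAL, reached 3 CPM. The interaction was fitted on all 18 pools. P-values were adjusted over all genes tested. Replicates are pools of distinct animals, and no replicate pair agreed within sampling noise. Alternatives in edgeR used size factors by the DESeq2 method (computed in edgeR), no filter, or a fit of all pools. Others added a term for pools with *Xist* at 1 CPM or more, counted WT CTAL replicate 1 as cKO or left it out, or left out each other pool. The remaining 2 were DESeq2's likelihood ratio test (version 1.42.0) on TMM library sizes and limma (version 3.58.1) on log2(TPM + 1). A count of 0 allows up to 3 counts, which covers counting error only.

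The members and lists were chosen with earlier results of these data known. All 10 members are named, and list genes were named where called, up to 3 per list and comparison, with the rest in counts. Exceptions, named after their values were seen, are *Nrg1*, *Adam17*, *Myc* between the WT segments, the markers and sex genes. *Errfi1* and *Egf* each have 2 listed RefSeq starts. The scripts were tested on simulated data.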

Additional observations from a re-analysis of the deposited data

Results flagged for a closer look

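Single pools stood apart from the rest of their group (gap to the nearest pool above 0.71 of the whole range of the group, Dixon's 95% limit for 5 samples) in 3 of 27 sets of CPM values and 3 of 27 sets of TPM values of the members. Chance flags about 1 in 20 sets. In CPM these were *Hbegf* at 68.2 in WT MTAL replicate 11, *Egfr* at 31.7 in cKO CTAL replicate 7 and *Errfi1* at 98.4 in cKO CTAL replicate 21. In TPM they were *Egf* at 5356 and *Erbb2* at 31.8, both in cKO CTAL replicate 2 and both the lowest of the group, and *Tgfa* at 3.89 in WT MTAL replicate 13. Groups of 3 pools were not examined in this way.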

How the results depend on the processing

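No paired analysis was possible because the groups share no replicate numbers. Over the members, 239 of 256 log2 fold changes kept their direction and side of the threshold under the alternatives that keep all pools, and 384 of 432 with a pool left out. In WT MTAL against WT CTAL *Egf* was called under all 17 alternatives (-1.08 to -0.94, adjusted p between 2.075e-19 and 0.0001721). The number of members called in cKO MTAL against WT MTAL was 1, and became 2 with DESeq2's likelihood ratio test, 2 in a fit of all pools and 0 on TPM. In cKO MTAL against cKO CTAL it was 2, and 1 on TPM. With a pool left out it was 0 to 3 in the first of these, 1 to 2 in the second and 0 to 1 for the interaction.

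The number of all genes called moved more, and the cause was not tested. In WT MTAL against WT CTAL it was 800, and 452 on TPM. In cKO MTAL against WT MTAL it was 845, and 1359 with the likelihood ratio test, 1399 without a filter, 317 on TPM and 2060 in a fit of all pools. In cKO CTAL against WT CTAL it was 143, and 360 with the likelihood ratio test, 92 on TPM and 89 with the term for *Xist*. In cKO MTAL against cKO CTAL it was 211, and 822, 508, 68, 653 and 672 with the likelihood ratio test, no filter, TPM, a fit of all pools and the *Xist* term. For the interaction it was 36, and 353, 79, 7, 21 and 17 with the likelihood ratio test, no filter, TPM, the *Xist* term and WT CTAL replicate 1 counted as cKO. With a pool left out these counts ranged over 538 to 784, 457 to 968, 75 to 188, 104 to 835 and 15 to 570 in the same order.

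Values on the log2 scale changed sign as follows. None of the changed values was called. In the main fit *Egfr* in cKO MTAL against WT MTAL was called (-0.78, adjusted p = 0.02246 in edgeR), and the others were not. On TPM, in cKO MTAL against WT MTAL, *Egfr* was at 0.060 (ratio of group means 0.20, against -0.79 in CPM) and *Erbb4* at 0.0061. Also on TPM, *Egfr* was at 0.42 and *Btc* at -0.086 in cKO MTAL against cKO CTAL, and the interaction of *Egfr* was 0.12 and that of *Errfi1* 0.0045. With the *Xist* term *Erbb4* was at 0.0033 in WT MTAL against WT CTAL, *Errfi1* at -0.033 in cKO MTAL against cKO CTAL, and the interactions of *Egf*, *Btc* and *Erbb2* were -0.018, 0.016 and -0.0031. *Errfi1* in cKO MTAL against cKO CTAL was at -0.023 without a filter and -0.0021 in a fit of all pools. The *Egf* interaction was -0.061 with WT CTAL replicate 1 counted as cKO. With a pool left out, WT MTAL against WT CTAL gave -0.071 to 0.022 for *Erbb4* and -0.024 to 0.30 for *Btc*. In cKO MTAL against WT MTAL *Egf* ranged from -0.0016 to 0.33, *Btc* from -0.66 to 0.61 and *Erbb3* from -0.50 to 0.00060. *Erbb4* in cKO CTAL against WT CTAL ranged from -0.027 to 0.058. In cKO MTAL against cKO CTAL *Errfi1* ranged from -0.15 to 0.43, *Btc* from -0.87 to 0.39 and *Erbb3* from -0.16 to 0.37. The interactions ranged from -0.099 to 0.23 for *Egf*, -0.28 to 0.31 for *Errfi1*, -0.99 to 0.26 for *Btc*, -0.35 to 0.13 for *Erbb3* and -0.019 to 0.19 for *Erbb2*.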
